A study of Mus musculus with 27 samples.

Results

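The 32 genes described here are the sensors, chaperones, oxidoreductases, degradation factors and membrane channels of the endoplasmic reticulum (ER) that make up and answer the unfolded protein response. They were chosen by symbol from textbook membership of that pathway and not from a readout, though with earlier results of these data known. All 32 were found among the 35275 genes of the deposited tables. By role they fall into 5 sensors and transcription factors (Xbp1, Atf6, Atf6b, Ern1, Eif2ak3), 11 chaperones and co-chaperones (Hspa5, Hsp90b1, Calr, Canx, Dnajb9, Dnajb11, Dnajc3, Sdf2l1, Manf, Creld2, Hyou1), 5 oxidoreductases (Pdia3, Pdia4, Pdia6, P4hb, Ero1l), 7 degradation factors (Herpud1, Syvn1, Sel1l, Edem1, Derl1, Derl2, Selenos) and 4 genes of the translocon and membrane (Sec61b, Sec61a1, Ssr1, Wfs1). All 32 passed the filter on low values at every stage, and no member was measured by fewer than 83 reads in any library.

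The levels come from RNA-seq of mouse CD8 T cells that carry the P14 T cell receptor transgene, which recognizes a single viral peptide, on a Rag2-/- background. Their genotypes were WT P14+, Lin28bTg P14+ (called lin28Tg) and Let-7Tg P14+ (called let-7Tg), and the mice were 6 to 10 weeks old. Lin28b is an RNA-binding protein that blocks the maturation of let-7 miRNAs, so the Lin28b transgene serves to lower let-7, whereas the let-7Tg transgene is a doxycycline-inducible let-7g inserted in the Col1a1 locus. Each genotype was taken at 3 stages with 3 biological replicates, 27 libraries in 9 groups: naive cells, cells activated for 12 h with antibodies to CD3 (2 μg/mL) and CD28 (5 μg/mL), and cytotoxic T lymphocytes (CTLs) at day 5 of culture, which had been started with irradiated splenocytes and anti-CD3 and received IL-2 (100 U/mL) at 48 h. All mice, WT controls included, drank doxycycline for 4 days, and the cultures held it at 2 μg/mL. The promoter that drives Lin28b is not given in the sources used here, and the labels do not say whether animals were pooled, so the p-values measure the spread between the 3 libraries of a group.

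The ER folds the proteins a cell secretes or displays. When unfolded proteins pile up there, 3 membrane sensors are set off: IRE1 (Ern1), which splices Xbp1 mRNA into the form that makes an active transcription factor; PERK (Eif2ak3), which slows translation and favours the factor ATF4; and ATF6 (Atf6, with its relative Atf6b), which is cut in the Golgi into a transcription factor. XBP1 and the cut ATF6 then raise chaperones such as BiP (Hspa5) and GRP94 (Hsp90b1), disulfide isomerases, the translocon and the machinery that withdraws misfolded proteins for degradation. The response is best known from plasma cells, and T cells also use parts of it when they grow and begin to secrete. Levels per gene, as measured here, count all Xbp1 mRNA and do not show splicing, nor do they show cutting of ATF6 or phosphorylation of PERK.

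ATF6 and XBP1 are known to act through the ER stress response element, which is a CCAAT box and a CCACG box with 9 bases between them. This pair was searched for on both strands of the RefSeq promoters of GRCm38.p6, 250 bases before to 50 bases after each start. Promoters were found for 27 of the 32 members (Ero1l under its RefSeq name Ero1a); Atf6, Derl1, Hyou1, Manf and Sec61a1 had no entry. The pair was present in 8 of those 27 members and in 39 of all 32851 promoters (0.119%). The stretches that hold it are shown because these members include several of the strongly activated chaperones, with the boxes in capitals (a CGTGG and an ATTGG mark the element on the other strand).
Hspa5, chr2:34772020-34772048 (+): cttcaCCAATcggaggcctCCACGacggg
Hsp90b1, chr10:86705618-86705676 (-): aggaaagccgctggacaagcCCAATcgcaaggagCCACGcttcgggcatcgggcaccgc
Hsp90b1, chr10:86705513-86705571 (-): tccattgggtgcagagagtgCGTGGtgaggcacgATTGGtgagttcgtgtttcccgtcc
Calr, chr8:84847055-84847113 (-): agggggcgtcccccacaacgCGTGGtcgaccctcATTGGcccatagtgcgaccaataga
Canx, chr11:50325780-50325838 (-): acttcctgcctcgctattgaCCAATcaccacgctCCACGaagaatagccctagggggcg
Pdia6, chr12:17266471-17266529 (+): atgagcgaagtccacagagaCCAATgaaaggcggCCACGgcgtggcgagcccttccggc
Dnajc3, chr14:118937807-118937865 (+): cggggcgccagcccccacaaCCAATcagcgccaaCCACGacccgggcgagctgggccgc
Creld2, chr15:88819500-88819558 (+): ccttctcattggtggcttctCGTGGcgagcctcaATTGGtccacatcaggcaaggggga
Syvn1, chr19:6046512-6046570 (+): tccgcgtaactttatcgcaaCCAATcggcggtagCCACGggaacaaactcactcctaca
The Hspa5 stretch is printed shorter because it lies before the RefSeq start but within the first exon of a longer GENCODE transcript. A related element, ATTGG and CCACG with 1 base between them, was found in Herpud1 and Dnajb11 among the members and in 12 promoters in all (0.0365%). A match of letters is a description and does not show that a factor binds there.

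The genotypes differ in let-7, so the let-7 sequences and their matches in the members are given next. The transgene encodes let-7g, and 11 mature mouse miRNAs share its seed (bases 2 to 8, in capitals).
mmu-let-7g-5p, chr9:106178846-106178867 (+): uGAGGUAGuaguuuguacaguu
mmu-let-7a-5p, chr13:48538239-48538260 (-): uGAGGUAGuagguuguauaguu
mmu-let-7i-5p, chr10:122985698-122985719 (-): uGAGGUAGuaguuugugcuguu
mmu-miR-98-5p, chrX:151913229-151913250 (+): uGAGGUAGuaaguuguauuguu
The 7-letter match to that seed was looked for after the stop codon of the transcript with the longest coding part of each gene (GENCODE M21, GRCm38; Sec61b had none to search). It occurred once in each of 4 of the 31 members searched (12.9%), against 1647 of 20595 coding genes (8.0%), and the members had the longer stretches (median 1055 against 800 bases). The matches of Ero1l, Dnajc3 and Edem1 are shown as examples, in capitals within 30 bases.
Ero1l, chr14:45283341-45283370 (-): gtaactgcaacCTACCTCtactgaatcact
Dnajc3, chr14:118980120-118980149 (+): cccagatctagCTACCTCctaacttgcttc
Edem1, chr6:108855902-108855931 (+): ctgaagtcttgCTACCTCtttgctagagga
In Ero1l the match starts at base 2669 of the 2941 bases after the stop codon.

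The libraries held 13862679 to 23590836 reads counted to genes. The transgenes followed the labels: Lin28b was at 9.94 to 67.9 FPKM in the 9 lin28Tg libraries and at most 0.0590 in the other 18, and Col1a1 was higher in the let-7Tg libraries than in both other genotypes at each stage. The 8 CD8 T cell markers were detected in all 27 libraries, with a summed level of 3601 to 4760 FPKM in naive cells, but Cd2, Cd3e, Cd3g and Cd5 were lower in naive lin28Tg cells than in both other genotypes. At 12 h Cd2, Cd3d, Cd3e and Cd3g were lower in lin28Tg than in let-7Tg cells, Cd2 and Cd3e also than in WT. At day 5 Cd2, Cd5, Cd8a and Cd8b1 were lower and Lck higher than in let-7Tg, and Cd2, Cd5 and Cd8b1 lower than in WT. Myeloid and dendritic cell markers set the naive lin28Tg libraries apart: the 12 genes summed to 214, 838 and 447 FPKM in replicates 1, 2 and 3, against 43.7 to 77.8 in naive WT and 35.2 to 75.9 in naive let-7Tg libraries, and 11 of the 11 tested were higher in lin28Tg in both comparisons. At 12 h their sum was 10.5 to 21.0 FPKM in lin28Tg against 6.35 to 13.3 in the other libraries of that stage. Of the 10 tested there, 5 were higher in lin28Tg than in let-7Tg and 3 higher than in WT. At day 5 their sum was 9.50 to 12.1 FPKM in lin28Tg against 3.53 to 6.75 in the other CTL libraries. All 3 tested at day 5 were higher in lin28Tg than in let-7Tg, and 1 (Itgam) was higher than in WT. In naive lin28Tg cells Sdc1, Mzb1, Cd79b and Igkc, of the 11 B and plasma cell markers, were also higher than in both other genotypes, at low levels for the plasma cell genes (Mzb1 1.18 to 1.86 FPKM against 0.235 to 0.841 in WT), while Pax5 and Tnfrsf17 were at 0 in all naive WT and let-7Tg libraries. Ighm, which made up most of that list's level, was lower than in WT. The other 10 genes summed to 36.6, 58.7 and 48.7 FPKM in naive lin28Tg, above the 24.3, 20.9 and 22.4 of WT and the 16.6, 22.5 and 19.4 of let-7Tg. The NK cell and CD4 list summed to 33.5 to 129 FPKM in naive lin28Tg against 14.1 to 33.1 in the other naive libraries. Within it Cd4, Klrb1c and Ncr1 were higher than in both other genotypes. Foxp3 was lower than in both, at 0.0913 to 0.219 FPKM against 0.401 to 0.445 in WT and 0.326 to 0.467 in let-7Tg. At day 5 the list differed by Klrb1c, at 93.9, 60.8 and 158 FPKM in lin28Tg, 17.2, 40.6 and 8.35 in WT and 2.11, 4.54 and 2.34 in let-7Tg CTLs, with Ncr1 and Klra8 at or near 0 and Cd4 at most 1.37 FPKM. The part of these markers in the results was tested only by keeping replicate 1, the lin28Tg library with the lowest myeloid sum, as the single naive lin28Tg library. At day 5, replicate 2 of lin28Tg stood apart in the members themselves. In bulk RNA, fewer cells of a type and less RNA per cell cannot be told apart.

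Together the 32 members took up more of the transcriptome after activation. Their summed level went from 2429.8, 2281 and 2127 FPKM in naive WT cells to 5259, 5069 and 5479.6 at 12 h, and it was 3532, 3645 and 3957 in day 5 CTLs, so the 3 stages did not overlap. Naive lin28Tg cells held 3033, 3206 and 3029 FPKM, above all naive WT and let-7Tg libraries (2217, 2209.6 and 2163 in let-7Tg). At 12 h lin28Tg cells held 5250.2, 5488 and 5323 FPKM, each above the 5096, 4448 and 5174 of let-7Tg cells. The WT libraries of that stage overlapped both. At day 5 lin28Tg CTLs reached 4071, 5775 and 4387 FPKM, each above the 3622, 3807 and 4002 of let-7Tg CTLs, with replicate 2 far above the others. The most abundant members were Calr, Hspa5 and Pdia3.

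**Figure D1:**
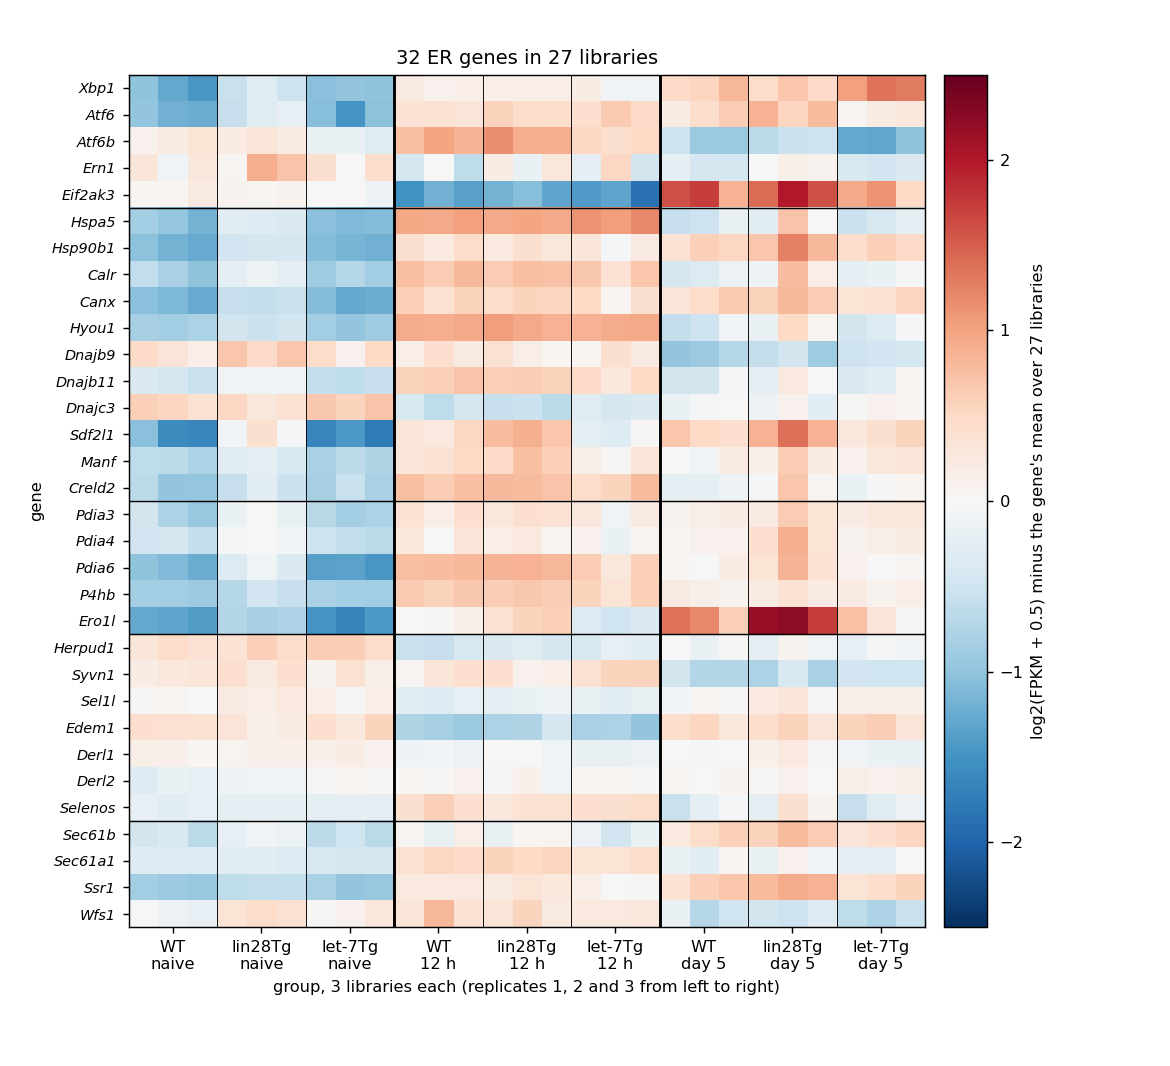
Level of each of the 32 members (rows, by role) in each of the 27 libraries (columns, by stage and genotype), as log2(FPKM + 0.5) minus the mean of that gene over all libraries, from blue (below its mean) to red (above). Most chaperones and oxidoreductases are lowest in naive cells and highest at 12 h or day 5, whereas Eif2ak3, Dnajc3, Herpud1 and Edem1 are lowest at 12 h.

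The step from naive to activated WT cells asked how the module answers T cell activation. In WT cells at 12 h, 23 members were higher than in naive cells and 4 were lower, with a median log2 difference of 1.16, while 35.7% of all genes tested were higher and 35.3% lower with a median of -0.03 (limma on all 27 libraries, Benjamini-Hochberg adjusted p under 0.05). Stage cannot be told apart from the culture and the sequencing of that stage. Without scaling between libraries the median of all genes moved to -0.18 and that of the members to 0.91, with the same 23 higher in number.

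Chaperones led this step. Hspa5, the ER HSP70 that holds the sensors inactive, stood at 268, 248 and 213 FPKM in naive WT and at 951, 939 and 979 at 12 h, a log2 difference of 2.23 ± 0.17 (SE, adjusted p = 7.15e-11). Pdia6, an isomerase that also attenuates IRE1, went from 82.2, 76.5 and 69.7 to 278, 283 and 290.1 FPKM (2.14 ± 0.13). Sdf2l1, a partner of BiP, and Hyou1, its nucleotide exchange factor, rose by 2.03 ± 0.17 and 2.01 ± 0.14. For each of these genes the lowest 12 h library was above the highest naive library. Of the 11 chaperones 9 rose, and all 5 oxidoreductases and all 4 translocon and membrane genes rose too.

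The sensors and the degradation factors did not follow as a group. Xbp1 rose by 1.67 ± 0.13 and Atf6 by 1.72 ± 0.12, and Atf6b by 0.90 ± 0.11. Eif2ak3, the PERK kinase, was at 19.5, 19.8 and 22.1 FPKM in naive WT cells and at 6.24, 7.89 and 6.97 at 12 h, so that it fell by 1.24 ± 0.18 on the log2 scale (adjusted p = 2.71e-06). Edem1, which hands over misfolded glycoproteins for degradation, also fell, from 53.1, 51.6 and 51.1 to 23.1, 21.8 and 20.5 FPKM. Dnajc3 (p58IPK, an inhibitor of PERK and a co-chaperone of BiP) and Herpud1, a scaffold of the degradation complex, were lower by -0.75 ± 0.10 and -0.64 ± 0.09. Among the 7 degradation factors 2 rose (Derl2 and Selenos), 2 fell, and Syvn1, Sel1l and Derl1 were not called, with log2 differences of 0.25, -0.05 and 0.02 (-0.22 for Derl1 without scaling). Dnajb9 (0.19) and Ern1 (-0.28) were not called either.

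From 12 h to day 5 in WT cells 6 members were higher and 16 lower, against 33.1% and 34.4% of all genes, with a median log2 difference of -0.23 (all genes -0.01). Eif2ak3 moved most, to 58.3, 63.5 and 34.5 FPKM, a difference of 2.62 ± 0.18, and it ended above its naive level in every library. Edem1 returned to 53.8, 57.3 and 48.2 FPKM, near its naive levels (1.11 ± 0.10). The other genes that rose were Ero1l (0.85 ± 0.16), Herpud1 (0.31 ± 0.09), Xbp1 (0.29 ± 0.13) and Dnajc3 (0.27 ± 0.10), of which Xbp1 was no longer called when any of the 3 WT libraries of 12 h was left out, among others. Among those that fell were Atf6b (-1.82 ± 0.11), Hspa5 (-1.56 ± 0.17), Hyou1 (-1.48 ± 0.14) and Dnajb9 (-1.29 ± 0.13). Hspa5 came down to 325, 339 and 424 FPKM, still above all naive WT libraries. By group means, 17 members were highest at 12 h in WT cells, 9 at day 5 and 6 in naive cells. In lin28Tg cells the count was 11 at 12 h and 14 at day 5, and in let-7Tg cells 13 and 14.

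**Figure D2:**
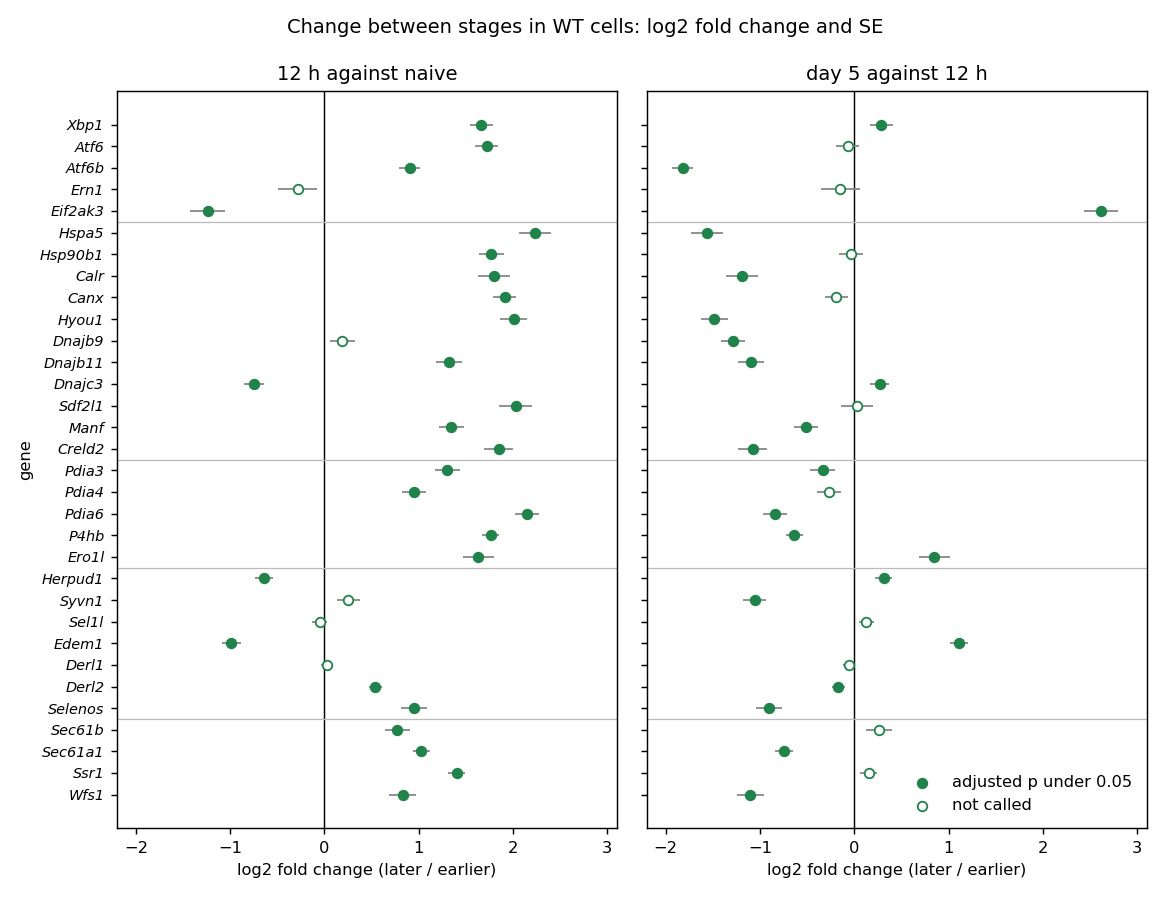
Log2 difference (± SE, limma) of each member in WT cells for the step from naive to 12 h and for the step from 12 h to day 5, with filled points for members called at adjusted p under 0.05. Points right of 0 are higher at the later stage; Eif2ak3 has the lowest value of the early step and the highest of the late step.

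The 3 genotypes were then compared at each stage to ask what let-7 changes. In naive cells, 18 members were higher in lin28Tg than in WT and 1 was lower (Edem1), where 19% of all genes tested were higher and 15.8% lower; without scaling all 19 called members were higher, and the share of higher calls over all genes went from 54.6% to 66.4%. The median log2 difference was 0.31 for the members and -0.04 for all genes. Naive let-7Tg cells differed from WT in 1 member, Atf6b, which was lower (0.633% of all genes were lower and 0.301% higher). An unadjusted p under 0.05 was found for 9 of the 32 members and for 1932 of the 13276 genes tested. Directly compared, lin28Tg exceeded let-7Tg in 18 members and was lower in 1 (Dnajc3), against 23% and 21.2% of all genes, with a median of 0.36 (all genes -0.03). The comparisons of lin28Tg and of let-7Tg with WT share the WT libraries. Each of the 18 members higher in naive lin28Tg than naive WT was also among the 23 that were higher in 12 h WT than naive WT. The 2 comparisons share the naive WT libraries, and the share of all genes higher in both is not given here.

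These naive counts were set beside the myeloid markers. With replicate 1 as the single naive lin28Tg library, an alternative chosen after seeing the data in which the lone sample is assumed to vary like the other groups, 9 members were called against WT, all higher, and the median was 0.34. The 10 lost calls were Atf6, Calr, Creld2, Dnajb11, Edem1, Manf, P4hb, Pdia3, Sec61b and Wfs1. Against let-7Tg 14 members were called, all higher, with a median of 0.42. With marker sums of 214, 838 and 447 FPKM in replicates 1, 2 and 3, 11 of the 32 members had the same order of the 3 libraries, among them Xbp1 (45.2, 53.5 and 45.9 FPKM), Sdf2l1 (38.6, 53.1 and 39.7) and Hsp90b1 (164, 171 and 169.9), and 18 were highest in replicate 2. Hspa5 was highest in replicate 1 (396, 385 and 376 FPKM). Shares over all genes are given here neither for the calls with the single library nor for the order of the 3 libraries.

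At 12 h few members differed. Ero1l was the single member called between lin28Tg and WT, and it was higher (6.1% of all genes were higher, 2.39% lower). In that comparison 2 of the 32 members had an unadjusted p under 0.05, against 2970 of the 12239 genes tested. Atf6b, Sdf2l1 and Ero1l were lower in let-7Tg than in WT (1.87% of all genes lower, 1.36% higher). Between lin28Tg and let-7Tg, 5 members were higher in lin28Tg, namely Atf6b, Pdia6, Sdf2l1, Manf and Ero1l, and none was lower in limma. The share higher was close to the 16.3% of all genes that were higher, and 14.5% of all genes were lower. Here 11 of the 32 members had an unadjusted p under 0.05, against 5173 of the 12239 genes tested. The member median was 0.16 against -0.02 for all genes. The calls against WT rested on few libraries: the Ero1l call between lin28Tg and WT was lost without WT replicate 1 or 2 or without lin28Tg replicate 2 or 3, and of the 3 let-7Tg calls 0 were left without any of the 3 WT libraries, lin28Tg replicate 2 or 3 or let-7Tg replicate 2, and 1 (Sdf2l1) without let-7Tg replicate 3, while Sdf2l1 alone was lost without lin28Tg replicate 1 or let-7Tg replicate 1. Same-numbered WT and let-7Tg libraries varied together at 12 h, and with the replicate block 1 of the 3 was called, Ero1l (adjusted p = 0.0470), with Atf6b and Sdf2l1 lost (0.0640 and 0.0534). Without lin28Tg replicate 2 the count between lin28Tg and let-7Tg was 3, with Manf and Pdia6 lost.

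At day 5 the difference between lin28Tg and let-7Tg widened again, to 11 members higher and 1 lower, where 10.8% of all genes were higher and 10.7% lower (50.2% of the calls over all genes were higher, and 35.0% without scaling). The median log2 difference was 0.37, and 0.00 over all genes. The members that were higher in lin28Tg CTLs were Atf6, Atf6b, Ern1, Eif2ak3, Hsp90b1, Pdia4, Pdia6, Sdf2l1, Derl1, Ssr1 and Ero1l, and Xbp1 was lower. Same-numbered libraries varied together at day 5, a pairing that this main fit leaves out. With the replicate number as a block 18 members were called, 17 of them higher, with Calr, Canx, Hspa5, Hyou1, Sec61b and Selenos added. The shares of all genes called with the block are not given here, for this count or for the blocked counts against WT. Without lin28Tg replicate 2, the library that stood apart, 8 members were called (7 higher, with Derl1, Eif2ak3, Hsp90b1 and Ssr1 lost); without lin28Tg replicate 3 the count was also 8, with Xbp1 among the lost, and without let-7Tg replicate 1 or 2 it was 7 and 6. Against WT, lin28Tg CTLs were higher in Ern1 and Ero1l (2.03% of all genes higher, 2.31% lower). The median log2 difference was 0.31 for the members and -0.0012 for all genes. Of the 32 differences 31 were above 0, a count whose share over all genes is not given here. Of the 32, 16 had an unadjusted p under 0.05, against 2549 of the 13030 genes tested. Every fit that left out 1 library lost Ern1, and 7 of the 9 lost Ero1l. In the blocked fit 5 members were called, with Hsp90b1, Pdia4 and Ssr1 added. Between let-7Tg and WT 0 members were called in limma (0.576% of all genes higher, 0.353% lower). An unadjusted p under 0.05 was found for 4 of the 32 members and for 1640 of the 13030 genes tested. The blocked fit called 2, Xbp1 (0.56 ± 0.10, higher in let-7Tg, adjusted p = 0.0319) and Ero1l (-0.74 ± 0.10, adjusted p = 0.0164).

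Counted over the stages, 22 members were called between lin28Tg and let-7Tg at 1 stage or more and 4 at all 3: Atf6b, Pdia6, Sdf2l1 and Ero1l, always higher in lin28Tg. The 10 members called at no stage were Dnajb9, Creld2, Herpud1, Syvn1, Sel1l, Edem1, Derl2, Sec61a1, Wfs1 and Selenos. Of the 19 members called in naive cells 9 were called at day 5 as well (47.4% of the naive calls and 75.0% of the day 5 calls). Xbp1 was the member among them whose direction turned. Over all genes, 23% were higher and 21.2% lower in naive cells, 16.3% and 14.5% at 12 h, and 10.8% and 10.7% at day 5. Shares of all genes called at several stages are not given here, so these counts are a description.

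**Figure D3:**
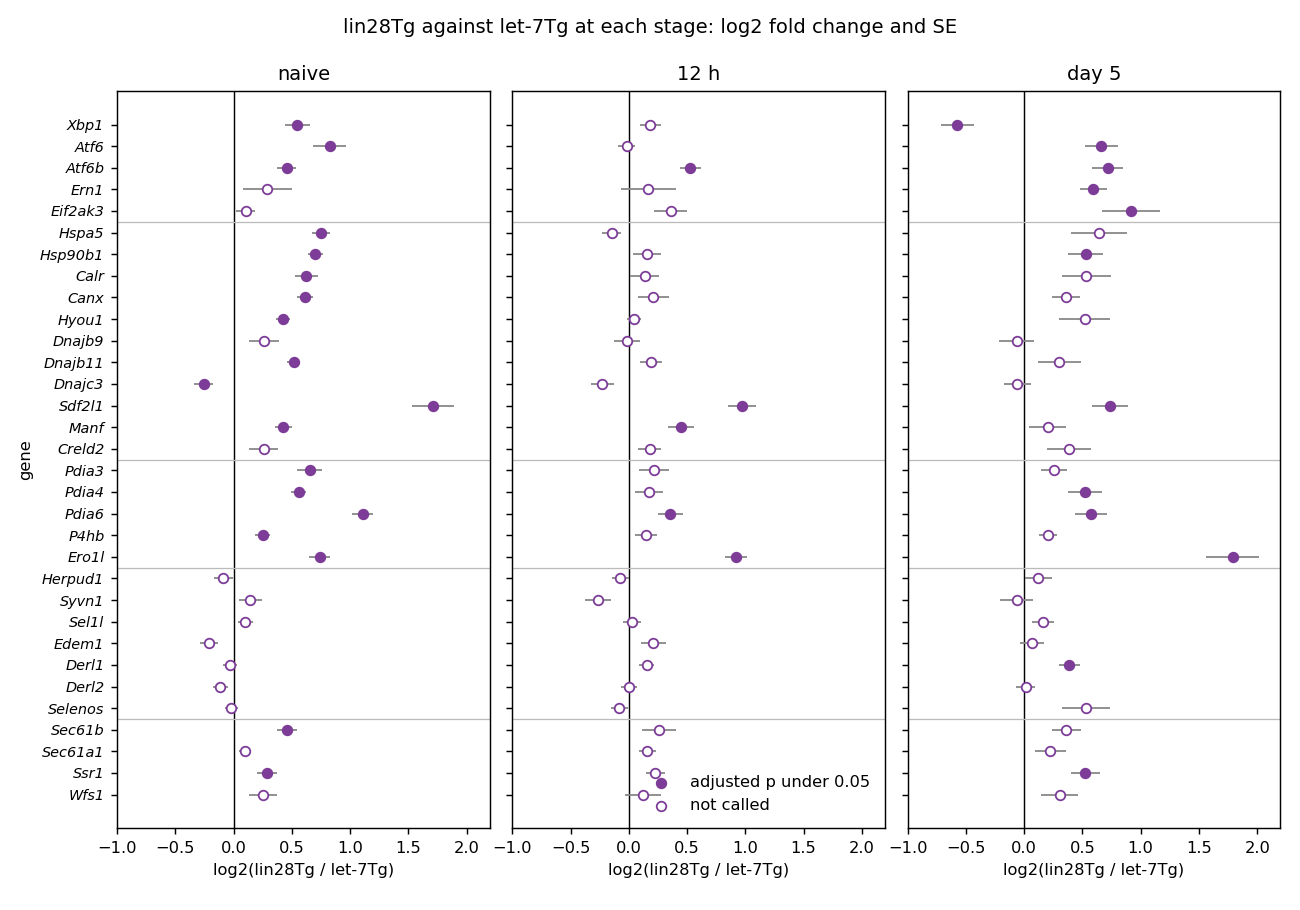
Log2 difference between lin28Tg and let-7Tg cells (± SE, limma) for each of the 32 members in naive cells, at 12 h and at day 5, with filled points where the adjusted p was under 0.05. In naive cells and at day 5 most points lie right of 0 (higher in lin28Tg), at 12 h they gather near 0, and Ero1l moves outward from 0.74 to 0.92 to 1.79.

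Ero1l, the oxidase that recharges protein disulfide isomerase and so drives disulfide bond formation, showed the largest day 5 difference of the 32. In naive cells it was at 10.3, 9.92 and 9.48 FPKM in WT, 15.2, 14.1 and 14.8 in lin28Tg and 8.93, 7.71 and 9.12 in let-7Tg libraries. At 12 h the levels were 25.9, 26.1 and 27.8 in WT, 33.7, 38.1 and 38.9 in lin28Tg, and 20.2, 18.1 and 19.8 in let-7Tg. By day 5 they had reached 66.4, 59.9 and 38.9 in WT and 117, 123 and 85.9 in lin28Tg CTLs, against 43.1, 32 and 26.2 in let-7Tg CTLs. The genotypes kept the order lin28Tg, WT, let-7Tg at each stage, without overlap between lin28Tg and let-7Tg anywhere; at day 5 the WT and let-7Tg libraries overlapped. Lin28Tg exceeded let-7Tg 1.67-fold in naive cells (log2 0.74 ± 0.09, adjusted p = 2.59e-04), 1.89-fold at 12 h (0.92 ± 0.09, adjusted p = 1.83e-04) and 3.46-fold in CTLs (1.79 ± 0.23, adjusted p = 0.00103). Against WT, lin28Tg was higher at all 3 stages (0.49 ± 0.09, 0.44 ± 0.09 and 1.05 ± 0.23), the day 5 call with an adjusted p of 0.0374. This gene is on the study's own lists of genes that follow let-7, which were chosen on these samples, so its direction is not independent evidence.

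The other oxidoreductases moved together in naive cells, where all 5 were higher in lin28Tg than in WT and than in let-7Tg. Pdia6 was at 82.2, 76.5 and 69.7 FPKM in WT, 130.2, 155 and 129 in lin28Tg and 64.2, 65.0 and 60.5 in let-7Tg cells, a log2 difference of 1.11 ± 0.09 between the transgenic genotypes (adjusted p = 3.26e-05). It was at 300.4, 303 and 296 FPKM in lin28Tg and at 256, 203 and 252 in let-7Tg cells at 12 h (0.36 ± 0.11), a call lost without lin28Tg replicate 1, 2 or 3 or WT replicate 1. In CTLs the values were 211, 298 and 212 against 178, 166 and 172 (0.57 ± 0.14), with no overlap at any stage. Pdia4 was 48.0, 49.6 and 47.4 FPKM in naive lin28Tg and 34.3, 32.3 and 31.0 in let-7Tg cells (0.56 ± 0.07), did not separate at 12 h (0.17 ± 0.12), and was called again at day 5 (0.52 ± 0.14). Pdia3, which folds glycoproteins and serves in the peptide loading of MHC class I, was 346, 383 and 342 in naive lin28Tg against 238, 215 and 223 FPKM in let-7Tg (0.66 ± 0.11), and was not called at day 5 (0.26 ± 0.11). P4hb, protein disulfide isomerase itself, had the smallest naive difference of the 5, 144, 169 and 158 FPKM against 134, 130.3 and 129 (0.25 ± 0.06, adjusted p = 0.00963).

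**Figure D4:**
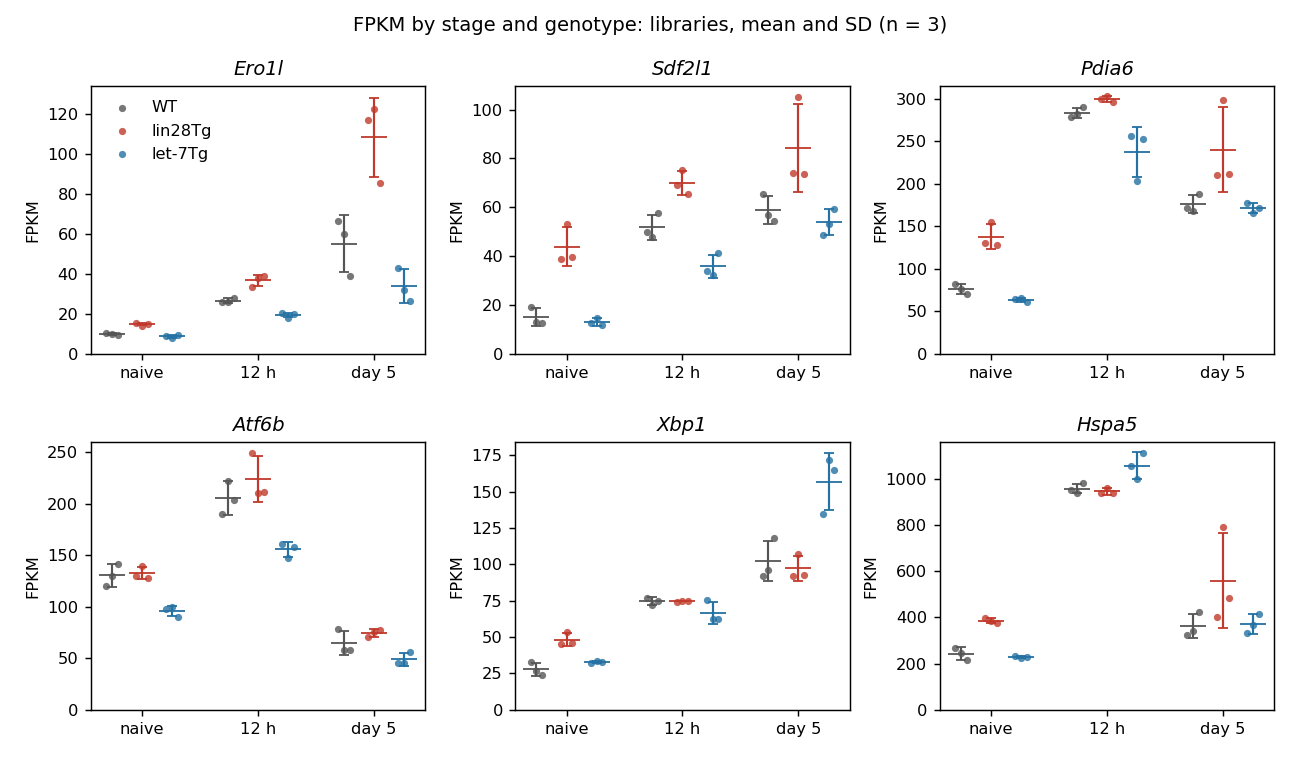
FPKM in each library (points) of Ero1l, Sdf2l1, Pdia6, Atf6b, Xbp1 and Hspa5 at the 3 stages, by genotype, with the mean (bar) and SD (whisker) of 3 libraries. Ero1l, Sdf2l1, Pdia6 and Atf6b are higher in lin28Tg than in let-7Tg at all stages, Xbp1 is higher in let-7Tg CTLs, and 1 lin28Tg CTL library lies far above the rest in Hspa5.

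Sdf2l1 had the largest naive difference. Its naive levels were 19.3, 13.0 and 12.6 FPKM in WT, 38.6, 53.1 and 39.7 in lin28Tg, and 12.5, 14.6 and 11.5 in let-7Tg cells, a log2 difference between the transgenic genotypes of 1.71 ± 0.18 (adjusted p = 1.24e-04). At 12 h it was 50, 47.9 and 57.6 in WT, 69.2, 75.1 and 65.3 in lin28Tg and 34.0, 32.1 and 41.2 in let-7Tg (0.97 ± 0.12), so the 3 genotypes did not overlap. In CTLs the difference was 0.73 ± 0.16, from 74.0, 105 and 73.6 against 48.7, 53.3 and 59.4 FPKM. Naive lin28Tg cells were thus in the range of neither other naive group, and reached into the let-7Tg range of 12 h.

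BiP and its partners separated in naive cells. Hspa5 was 268, 248 and 213 FPKM in WT, 396, 385 and 376 in lin28Tg and 233, 224 and 228 in let-7Tg cells (0.75 ± 0.08 between lin28Tg and let-7Tg, adjusted p = 1.40e-04). At 12 h lin28Tg (937, 962 and 937) lay below let-7Tg (1057, 997 and 1113), a difference of -0.15 ± 0.08 that was not called. In CTLs lin28Tg stood at 401, 790.0 and 482 FPKM against 331, 367 and 416, and the value of 0.64 ± 0.24 passed with the block alone (adjusted p = 0.0908 without it, 0.0398 with it). Hsp90b1, which folds integrins and Toll-like receptors, was 164, 171 and 169.9 in naive lin28Tg and 107, 102 and 99.9 FPKM in let-7Tg (0.70 ± 0.06), was not called at 12 h (0.16 ± 0.12) and was 371, 550.1 and 399 against 309, 347 and 317 in CTLs (0.53 ± 0.15, adjusted p = 0.0334). Hyou1 (0.42 ± 0.06) and the J-domain co-chaperone Dnajb11 (0.52 ± 0.06) were also higher in naive lin28Tg than in let-7Tg cells, and neither was called at 12 h or at day 5, where Hyou1 passed with the block (0.52 ± 0.16, adjusted p = 0.0414).

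The lectin chaperones Calr and Canx hold newly made glycoproteins until they are folded. Calr was at 459, 490.3 and 454 FPKM in naive lin28Tg against 289, 326 and 292 in let-7Tg cells (0.62 ± 0.10), and in CTLs at 487, 911 and 602 against 449, 476 and 516 (0.53 ± 0.21, adjusted p = 0.104, or 0.0460 with the block). Canx was at 138, 136 and 139 FPKM against 96.8, 84.8 and 87.3 in naive cells (0.61 ± 0.07), and at 305, 359.8 and 318 against 262, 266 and 299 in CTLs (0.36 ± 0.12, adjusted p = 0.0637, or 0.0187 with the block). At 12 h neither was called (0.14 ± 0.12 and 0.21 ± 0.13). Manf, a secreted ER protein that binds BiP, was higher in lin28Tg than in let-7Tg in naive cells (0.43 ± 0.07) and at 12 h (201, 242 and 218 against 161, 148 and 179.8 FPKM; 0.45 ± 0.11), but not called in CTLs (0.20 ± 0.16).

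Of the other chaperones, Dnajc3 was called in the opposite direction and Dnajb9 and Creld2 were not called between lin28Tg and let-7Tg. Dnajc3 was the member that was lower in naive lin28Tg than in let-7Tg cells, with 41.3, 35.3 and 37.7 against 46.0, 42.7 and 47.5 FPKM (-0.26 ± 0.08, adjusted p = 0.0280), a call lost without lin28Tg replicate 2 or 3 or without let-7Tg replicate 1 or 3. Its later differences were -0.23 ± 0.10 and -0.06 ± 0.12, not called. Dnajb9 (ERdj4, which restrains IRE1) ranged from 8.70 to 13.4 FPKM over the 9 naive libraries and was called at no stage, nor was Creld2 between these genotypes (0.26, 0.18 and 0.38). Among the genotype comparisons Creld2 was called between naive lin28Tg and WT alone (0.36 ± 0.12, adjusted p = 0.0471).

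Xbp1 was the member whose order turned. In naive cells it was 32.9, 26.9 and 23.9 FPKM in WT, 45.2, 53.5 and 45.9 in lin28Tg and 31.9, 33.2 and 32.6 in let-7Tg (0.55 ± 0.11 between lin28Tg and let-7Tg, adjusted p = 0.00336). At 12 h the 9 libraries ran from 62.2 to 77.2 FPKM, with a difference of 0.18 ± 0.09 that was not called. In CTLs let-7Tg libraries had 135, 172 and 165 FPKM, above the 92.2, 96.4 and 118 of WT and the 92.0, 107 and 93.0 of lin28Tg, so lin28Tg was lower by -0.57 ± 0.14 (adjusted p = 0.0185). That call was lost without lin28Tg replicate 1 or 3 or without let-7Tg replicate 2. Lin28Tg and WT CTLs did not separate (-0.01 ± 0.14, 95% interval from -0.29 to 0.26).

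Atf6 and Atf6b, the cleaved factors, were both higher in lin28Tg, at different stages. Atf6 was 8.57, 10.4 and 11.1 FPKM in naive lin28Tg against 5.90, 4.33 and 6.08 in let-7Tg and 6.30, 5.39 and 5.20 in WT cells (0.83 ± 0.14 against let-7Tg). Its 12 h levels overlapped, at 16.2 to 20.7 FPKM over the 9 libraries (-0.02 ± 0.07), and in CTLs it was 24.1, 19.1 and 22.8 in lin28Tg and 13.7, 14.8 and 15.7 in let-7Tg (0.66 ± 0.14). Atf6b differed at every stage by the low level of the let-7Tg libraries: in naive cells 98.2, 99.7 and 90.4 FPKM against 129.9, 139 and 128 in lin28Tg and 120.1, 129.6 and 142 in WT. Lin28Tg exceeded let-7Tg by 0.46 ± 0.08, 0.53 ± 0.09 and 0.72 ± 0.14 at the 3 stages. Against WT, let-7Tg was lower in naive cells (-0.49 ± 0.08, adjusted p = 0.0322) and at 12 h (-0.42 ± 0.09, adjusted p = 0.0434), and the day 5 value of -0.45 ± 0.14 was not called. The naive call was lost in 6 of the 9 fits that left out 1 library.

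The kinases Ern1 and Eif2ak3 were called at day 5 alone. Ern1 was 9.26, 10.4 and 9.84 FPKM in lin28Tg CTLs, 6.96, 6.48 and 7.08 in let-7Tg and 7.88, 6.84 and 6.69 in WT (0.59 ± 0.12 against let-7Tg, adjusted p = 0.00675). Its naive and 12 h replicates varied too widely to separate the genotypes, from 8.53 to 17.9 and from 5.80 to 13.6 FPKM. Eif2ak3 stood at 50, 76.4 and 57.6 FPKM in lin28Tg, 36.5, 41.5 and 26.7 in let-7Tg and 58.3, 63.5 and 34.5 in WT CTLs, a difference of 0.91 ± 0.25 between lin28Tg and let-7Tg (adjusted p = 0.0290). Without the block it was lost when lin28Tg replicate 2 or 3 or let-7Tg replicate 1 or 3 was left out, and without scaling; with the block its adjusted p was 0.00341.

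Few of the 7 degradation factors were called between genotypes, a small number of genes to set against the shares of all genes. Between lin28Tg and let-7Tg those shares were 23% higher and 21.2% lower in naive cells, 16.3% and 14.5% at 12 h, and 10.8% and 10.7% at day 5. Syvn1 is the ubiquitin ligase of the complex, Sel1l and Herpud1 are its scaffold, Edem1 hands over glycoproteins, and Derl1, Derl2 and Selenos belong to its membrane channel. None was called between lin28Tg and let-7Tg in naive cells or at 12 h by limma (2 comparisons with 0 of 7), and at day 5 Derl1 was called, with 34.5, 37.1 and 32.2 FPKM in lin28Tg against 29.6, 27.7 and 27.6 in let-7Tg CTLs (0.39 ± 0.09, adjusted p = 0.0130), a call lost without lin28Tg replicate 2 or let-7Tg replicate 2. Selenos was at 31.2, 48.7 and 39.1 FPKM in lin28Tg against 24.6, 29.7 and 33.2 in let-7Tg CTLs, a difference of 0.53 ± 0.21 that passed with the block alone (adjusted p = 0.102 without it, 0.0107 with it), and its difference grew from 12 h to day 5 (0.59 ± 0.20, adjusted p = 0.0347). Edem1 was the member that was lower in naive lin28Tg than in naive WT cells, at 49.1, 42.8 and 44.8 against 53.1, 51.6 and 51.1 FPKM (-0.25 ± 0.08, adjusted p = 0.0385); it lost the call without any of the 3 WT libraries, lin28Tg replicate 2 or 3 or let-7Tg replicate 1, and without scaling.

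In the translocon, through which new proteins enter the ER, Sec61b and Ssr1 were higher in naive lin28Tg than in let-7Tg cells and Sec61a1 was not called. Sec61b, the small subunit of the channel, was 136, 147 and 140.4 FPKM against 98.7, 111 and 97.9 (0.46 ± 0.09, adjusted p = 0.00253). Ssr1, of the translocon-associated complex, was 10.9, 11.1 and 11.0 against 9.63, 8.40 and 8.70 (0.29 ± 0.08), and in CTLs 30.3, 33.1 and 31.8 against 21.9, 23.6 and 25.4 FPKM (0.53 ± 0.12, adjusted p = 0.0140). Sec61a1, the pore itself, was at 183, 183 and 177 in naive lin28Tg and at 169.7, 167 and 167 FPKM in let-7Tg cells (0.10 ± 0.05). Wfs1, a calcium-handling membrane protein and the least abundant member, was 4.20, 4.61 and 4.35 FPKM in naive lin28Tg cells against 3.22, 2.87 and 2.72 in WT (0.46 ± 0.12), and was called between lin28Tg and let-7Tg at no stage.

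Members with and without the CCAAT and CCACG pair were set side by side as a description. At the step from naive to 12 h in WT cells the 8 members with the pair had a median log2 difference of 1.82, with 6 higher and 1 lower (Dnajc3), and the 19 members whose promoters lack it had a median of 0.90, with 13 higher and 3 lower. In naive cells the median difference between lin28Tg and let-7Tg was 0.62 with the pair and 0.29 without it, at 12 h 0.15 and 0.18, and at day 5 0.46 and 0.30. Both groups spread widely, from -0.26 (Dnajc3) to 1.11 (Pdia6) with the pair in naive cells and from -0.21 to 1.71 (Sdf2l1) without it.

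The exons of 10 members overlap another annotated gene, 5 of them a coding gene (Pdia3, Pdia6, Manf, Syvn1 and Derl2), over 14 to 231 shared bases. Whether the counting used strand is not given in the sources used here, so reads from those stretches could belong to either gene.

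The other genes of the pathway were read from lists. Of 15 genes of the PERK and ATF4 branch, which restores amino acid supply and, when stress lasts, favours cell death, 14 were tested in naive cells: 5 were higher in lin28Tg than in let-7Tg (35.7%, against 23% of all genes) and 1 was lower (7.14% against 21.2%). Among them were Atf3 (1.70 ± 0.34), a stress-induced factor, and Sesn2 (1.15 ± 0.20), which restrains mTORC1, with Eif2ak4 lower (-0.40 ± 0.11). At 12 h Atf5 alone was called (0.47 ± 0.10), 6.67% of the list against 16.3% of all genes higher. At day 5, 8 of 15 were higher (53.3%, against 10.8% of all genes) and 1 lower (6.67% against 10.7%), with a median log2 difference of 0.50 against 0.00 over all genes. They included Chac1, a glutathione-degrading target of ATF4 (2.38 ± 0.25, adjusted p = 4.75e-04), Atf5 (0.78 ± 0.13) and Ddit3, which encodes CHOP (0.62 ± 0.11), whereas Atf3 was then lower (-1.0 ± 0.27).
Of 30 further genes of the translocon, signal peptidase and N-glycosylation, 8 were higher and 3 lower in naive lin28Tg than in let-7Tg cells. The counts were 6 and 1 at 12 h, and 11 and 0 at day 5. At day 5, 19 of the 30 had an unadjusted p under 0.05 in limma, against 4589 of the 13030 genes tested. The shares higher were 26.7% and 20.0% in naive cells and at 12 h, near the 23% and 16.3% of all genes, and 36.7% at day 5 against 10.8%. Rpn1, a subunit of the oligosaccharyltransferase, was called in naive cells (0.66 ± 0.06) and at 12 h (0.51 ± 0.11), and Magt1 likewise (0.71 ± 0.09 and 0.79 ± 0.18). The day 5 calls with the smallest adjusted p were Srp68, Spcs3 and Ssr3 (0.58 ± 0.08, 0.66 ± 0.10 and 0.60 ± 0.09).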

How the data were processed

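RNA was extracted with TRIzol from CD8 T cells of 27 samples (3 genotypes, 3 stages, 3 replicates) and sequenced by a commercial service. Per the submitters' processing notes the authors used TopHat2 (2.0.9), Bowtie2 (2.0.6) and HTSeq (0.6.1) with the mouse build GRCm38; the annotation release and strand setting are not given in the sources used here. The values used are FPKM per gene and library as deposited by the authors, 1 table per stage with 35275 genes. The tables also hold the authors' own means, fold changes and p-values, which were not used.
FPKM is relative to the library total. Whole reads were recovered from the FPKM steps (100% of 462839 values whole within 0.01) and used only for depth, 13862679 to 23590836 reads per library (median 16761360), and to drop low genes, keeping those with 15 reads over the libraries fitted and, in 3 or more of them, an FPKM worth 10 reads in a library of median size. Libraries were scaled by a trimmed mean, and log2(FPKM + 0.5) was fitted with limma 3.58.1 (trend, R 4.3.3) on the 9 libraries of a stage, or on all 27 for steps between stages and for differences of differences. Adjusted p-values are Benjamini-Hochberg over all genes tested (13276 naive, 12239 at 12 h, 13030 at day 5, 14452 jointly), with a threshold of 0.05. A fold change on this scale understates the change of low genes. The fits were tested on simulated data.
Same-numbered libraries were checked for pairing by the correlation of their deviations from the group means: at day 5 every pair was between 0.245 and 0.715. This pairing comes from the data and not from the labels. The main fits, day 5 included, held no replicate term, so p-values given without mention of the block ignore it. Alternatives were another pseudocount, no filter, no scaling, median-of-ratios scaling, only the groups compared, the replicate block, and leaving out each library. Members and lists were chosen with earlier results of these data known. Named were all 32 members, Lin28b and Col1a1 as a check of the transgenes, and from each other ER list up to 3 called genes per direction and stage with the smallest adjusted p between lin28Tg and let-7Tg. Motifs and sequences come from RefSeq (GRCm38.p6) and GENCODE M21; 1 seed match among the members is not reported here.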

Additional observations from a re-analysis of the deposited data

Results flagged for a closer look

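The difference between lin28Tg and let-7Tg cells itself changed between stages for some members. This was an interaction term in the limma fit of all 27 libraries, with Benjamini-Hochberg adjustment over all genes. Of all genes 13.3% were called from naive to 12 h and 20.2% from 12 h to day 5. The members were called no more often, with 4 of 32 (12.5%) from naive to 12 h and 5 of 32 from 12 h to day 5. By direction, 0% of the members were higher and 12.5% lower from naive to 12 h, against 5.07% and 8.24% of all genes. From 12 h to day 5, 12.5% were higher and 3.13% lower, against 8.17% and 12.0% of all genes. From naive cells to 12 h the difference between lin28Tg and let-7Tg became smaller for 4 members: Atf6 by -0.85 ± 0.17 on the log2 scale (SE, adjusted p = 0.00221), Pdia6 by -0.76 ± 0.18 (0.00658), Hspa5 by -0.90 ± 0.24 (0.0138) and Sdf2l1 by -0.74 ± 0.24 (0.0463). With replicate 1 as the single naive lin28Tg library, the library with the lowest myeloid marker sum, 0 of these were called; without let-7Tg replicate 2 of 12 h 8 members were called. Sdf2l1 alone was also lost without several single libraries, among them lin28Tg replicate 2 of 12 h.
From 12 h to day 5 the difference grew for Ero1l by 0.84 ± 0.23 (0.0117), Atf6 by 0.66 ± 0.17 (0.00812), Hspa5 by 0.76 ± 0.24 (0.0257) and Selenos by 0.59 ± 0.20 (0.0347), and moved the other way for Xbp1, by -0.78 ± 0.18 (0.00291). Hspa5 and Selenos were lost without lin28Tg replicate 2 of day 5, whose Hspa5 level of 790.0 FPKM stood above the 401 and 482 of the other lin28Tg CTL libraries, and likewise without let-7Tg replicate 1 or 3 of 12 h or replicate 1 of day 5. Selenos alone was lost without lin28Tg replicate 1 or 2 of 12 h, lin28Tg replicate 3 of day 5 or let-7Tg replicate 2 of day 5.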

How the results depend on the processing

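Counts of members called against WT were the least stable. Between lin28Tg and WT the count was 9 in naive cells with the single lin28Tg library (19 in all), 2 at 12 h without scaling and with only the groups compared, and at day 5 0 without the filter, without scaling or with only the groups compared, and 5 with the replicate block. Between let-7Tg and WT it was 0 in naive cells without the filter and with the replicate block, 0 at 12 h without the filter or with only the groups compared and 1 with the block, and 2 at day 5 with the block. For the change of the lin28Tg and let-7Tg difference between stages, it was 0 from naive to 12 h with the single library and 3 from 12 h to day 5 without the filter. Derl1 turned from 0.02 to -0.22 at the step from naive to 12 h in WT cells without scaling, not called as reported. Leaving out 1 library gave 14 to 19, 0 to 1 and 17 to 21 members in naive cells (lin28Tg against WT, let-7Tg against WT, lin28Tg against let-7Tg), 0 to 2, 0 to 3 and 3 to 7 at 12 h, and 0 to 1, 0 to 1 and 6 to 15 at day 5. The WT steps gave 27 to 28 and 19 to 23, and the differences of differences 3 to 8 and 3 to 7. Of single member values, 416 of 416 kept direction and side of the threshold with a pseudocount of 0.1, 409 with median-of-ratios scaling, 398 without scaling, 397 without the filter and 398 with the block, as did 5841 of 6048 that left out 1 library. The share of higher calls over all genes went from 32.3% to 51.0% (naive) and 62.0% to 72.4% (day 5) between let-7Tg and WT without scaling. Same-numbered naive and 12 h libraries did not all vary together (correlations of -0.257 to 0.475 and -0.257 to 0.549), although at 12 h the 3 pairs of WT and let-7Tg libraries did (0.240, 0.549 and 0.434). The causes of these changes were not tested.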

Other observations

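Beside the counts of the other ER lists stand the shares over all genes between lin28Tg and let-7Tg: 23% higher and 21.2% lower in naive cells, 16.3% and 14.5% at 12 h, and 10.8% and 10.7% at day 5. Of the other ER chaperones and oxidoreductases, 8 of 24 were higher and 4 lower in naive lin28Tg cells, 6 and 3 of 25 at 12 h, and 7 and 4 of 25 at day 5 (limma, adjusted p under 0.05), which is 33.3% and 16.7%, 24% and 12%, and 28% and 16%. Pdia5, a disulfide isomerase, was higher in naive cells (1.46 ± 0.21) and at day 5 (1.07 ± 0.28), and Fkbp11, a prolyl isomerase, at day 5 (1.6 ± 0.20). Dnajc10, a disulfide reductase of the degradation pathway, was lower in naive cells (-0.61 ± 0.05) and at day 5 (-0.68 ± 0.10), and Prdx4, an ER peroxidase, was lower at day 5 (-1.35 ± 0.17).
Of 20 other degradation genes, 5 were higher and 3 lower in naive lin28Tg cells (25% and 15%, near the shares of all genes), 6 and 2 at 12 h (30% and 10%), and of 19 at day 5 2 were higher (10.5%, near all genes), Rnf5 (0.63 ± 0.15) and Vcp (0.43 ± 0.13), the ATPase that pulls proteins out of the membrane. Faf2 and March6 were lower in naive cells (-0.27 ± 0.06 and -0.41 ± 0.08) and at 12 h (-0.31 ± 0.05 and -0.35 ± 0.07). Of the genes of ER exit and retrieval, 6 of 20 were higher and 4 lower in naive cells, 2 and 3 of 20 at 12 h, and 5 of 21 higher at day 5 (30% and 20%, 10% and 15%, and 23.8%). Surf4, a cargo receptor, was higher in naive cells (0.49 ± 0.07) and at 12 h (0.38 ± 0.10), whereas the coat gene Sec23a was lower at both (-0.59 ± 0.10 and -0.52 ± 0.11).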
